A study of Mus musculus with 2 samples.

Results

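The basal layer of the mammary epithelium holds its identity and its contractile character through a small set of transcriptional regulators, and the RNA of 10 of them is described here. The genes were *Trp63*, *Sox9*, *Sox10*, *Id4*, *Tbx3*, *Mef2c*, *Srf*, *Myocd*, *Runx1* and *Egr3*, taken by name from a table of 49492 genes, and each was listed once. RNA was sequenced from basal cells of wild-type adult female mice, sorted by flow cytometry as CD24+ CD29hi cells free of the leukocyte, endothelial and red cell markers CD45, CD31 and TER119. One library (CL basal) came from mice given clodronate liposomes by intraperitoneal injection, which are taken up by macrophages and kill them, and the other (Ctrl basal) from control mice. The samples carried the time label day 7, and the control is labelled as having no treatment in one place and saline in another. How many animals went into each library was not stated. With 1 library per group there was no replicate check of any difference, so every test below compares these 2 libraries and not the conditions, and every interval covers counting error only.

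p63, encoded by *Trp63*, is the p53 family member on which stratified and basal epithelia depend. SOX9 and SOX10 are closely related HMG box factors of stem and progenitor states, and ID4 is a helix-loop-helix protein without a DNA-binding region that ties up its partners. TBX3 is a T-box repressor whose loss causes mammary gland defects, RUNX1 binds DNA together with CBFB, and EGR3 is a zinc finger protein induced early after growth factor signals. SRF, its coactivator myocardin (*Myocd*) and MEF2C drive smooth muscle genes, which basal cells also express because they contract to eject milk.

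SRF acts through the CArG box, and the promoter of *Srf* itself carries this motif, so its sequence is shown first. Promoter sequences (RefSeq, GRCm38.p6) were matched for 4 of the 10 genes, *Srf*, *Id4*, *Runx1* and *Mef2c*. The 2 stretches of the *Id4* promoter that match the EGR site GCGNGGGCG on the opposite strand and the match in the inner of the *Runx1* promoters are also shown, since *Egr3* and its paralogs are among the genes measured. Capitals mark the matches, and each line runs 5′ to 3′ along the strand of its gene.
Srf, minus strand, chr17:46556183-46556322, CArG boxes in capitals: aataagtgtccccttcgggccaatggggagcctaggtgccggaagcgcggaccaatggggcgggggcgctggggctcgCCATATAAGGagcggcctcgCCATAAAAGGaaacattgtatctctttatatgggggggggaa
Id4, plus strand, chr13:48260926-48261075, EGR sites in capitals: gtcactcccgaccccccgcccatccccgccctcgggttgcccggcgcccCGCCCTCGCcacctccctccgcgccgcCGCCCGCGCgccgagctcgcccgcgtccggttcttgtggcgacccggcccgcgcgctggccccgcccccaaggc
Runx1, minus strand, chr16:92697430-92697529, EGR site in capitals: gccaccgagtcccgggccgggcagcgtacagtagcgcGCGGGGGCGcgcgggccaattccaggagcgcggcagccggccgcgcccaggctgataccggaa

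Counted from the transcription start, the CArG boxes of *Srf* lie at -82 to -73 and at -62 to -53. Both strands were searched over the 250 bases before each start. A CArG box was found in 1.47% of 32851 promoters of the same length, and 0.0183% held 2 or more. *Srf* also held an EGR site upstream of these boxes, a motif found in 4.70% of promoters, with 2 or more in 0.648%. The EGR site overlaps the letters of the GC box GGGCGG in *Srf* and *Id4*. The shares are over promoters of any base composition. The window of *Id4* was 75.6% G and C, that of the inner *Runx1* promoter 67.6% and that of *Srf* 59.6%. The promoters of *Mef2c*, of which the table holds 3, had neither a CArG box nor an EGR site in these windows. These matches describe the letters and are not evidence of binding.

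The depths were alike, with 38962512 counts for CL basal and 37846008 for Ctrl basal. The sorted cells carried the basal markers in both libraries, and of 10 such genes 6 were higher in CL basal and 3 lower by the test described further on without its fold threshold, beside 38.9% and 24.6% of all genes with at least 1000 counts. The basal keratin *Krt14* stood at 9366 TPM in CL basal against 8372 in Ctrl basal (a level corrected for gene length and scaled to the same sum in each library), and its partner keratin *Krt5* at 1301 and 1500 TPM. Summed, the 10 basal markers held 457037 counts in CL basal against 418521 in Ctrl basal. Other cell types were not absent from either. Summed CPM (counts scaled to the effective library size) of the 12 luminal markers was 3461 in CL basal against 5738 in Ctrl basal. Pericyte and vascular smooth muscle markers (8 genes) summed to 101 and 154 CPM, endothelial markers (8 genes) to 343 and 426, fibroblast markers (8 genes) to 1158 and 1252, and leukocyte markers (12 genes) to 31.7 and 32.1 CPM, in the same order. These sums rest on few genes. *Postn* gave 36523 of 44535 fibroblast counts in CL basal and 38221 of 48019 in Ctrl basal. At the adjusted p alone 7 of the 8 fibroblast markers were lower and 1 higher, beside 22.0% and 22.6% of all tested genes. Their median log2 fold change was -0.42, and *Lum* fell from 128 to 34 counts. Of 11 tested leukocyte markers (median -0.05), 1 was lower, 1 higher and 9 neither, to be read beside the same shares. The macrophage gene *Mpeg1* rose from 28 to 88 counts, whereas the macrophage gene *Cd68* was lower at the adjusted p alone with 185 against 233. Markers of the upper layers of the epidermis (9 genes) summed to 36.4 and 34.9 CPM, but single members differed widely. *Krt1*, *Krt10* and *Calml3* rose, with 367 counts against 19, 262 against 38 and 93 against 24, *Sbsn* was lower with 615 against 1196, and *Flg* was at 0 in both. In bulk RNA, fewer cells of a type and less RNA per cell cannot be told apart.

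Where a pair of values follows a gene without library names, CL basal comes first. Read on the TPM scale, the 10 regulators spanned a wide range, from *Sox9* at the top to *Myocd* at the bottom of both libraries. In Ctrl basal, *Sox9* stood at 217 TPM, *Id4* at 177, *Runx1* at 169 and *Sox10* at 137. A middle group followed, with *Srf* at 57.1 TPM, *Egr3* at 51.5 and *Trp63* at 49.8. *Tbx3* was at 15.4 TPM, *Mef2c* at 2.49 and *Myocd* at 0.674. *Sox9* was above 96.3% of all tested genes in Ctrl basal, and *Myocd* was above only 11.3%. On the counts as given, all neighbours in this order had separate 95% Poisson intervals except *Egr3* and *Trp63*. Both mates of a pair may each have been counted, since low counts were mostly even. These intervals would then be too narrow, and the order was not checked with counts halved.

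**Figure D1:**
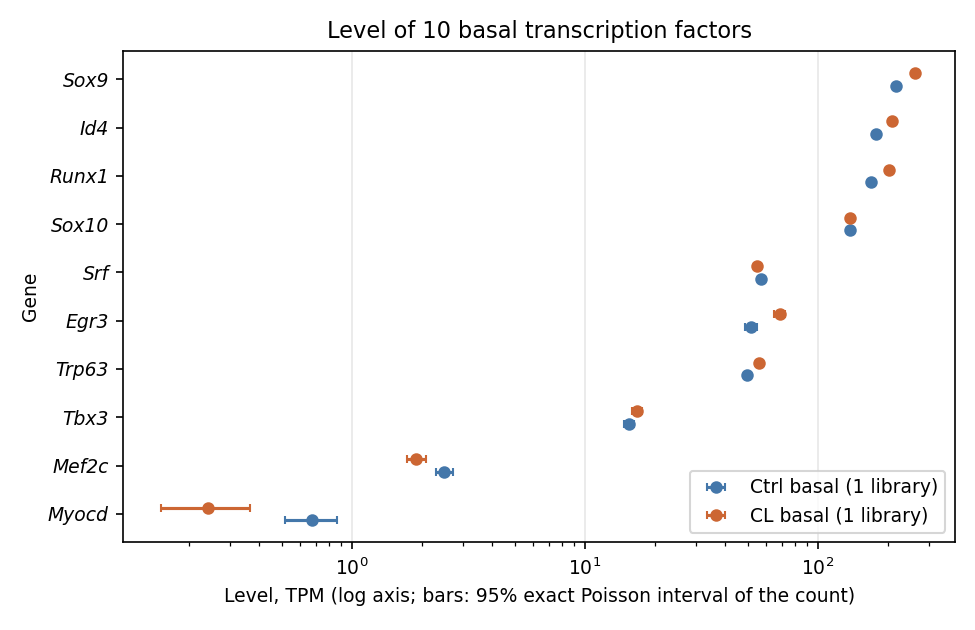
Level of each of the 10 genes (vertical axis) in TPM on a log axis, in Ctrl basal (blue) and CL basal (orange), 1 library each, with the 95% exact Poisson interval of the count. *Sox9* is highest (217 and 262 TPM) and *Myocd* lowest (0.674 and 0.242 TPM) in Ctrl basal and CL basal respectively.

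In CL basal the upper part of the order was the same, with *Sox9* at 262 TPM, *Id4* at 209, *Runx1* at 203 and *Sox10* at 138. Here the intervals of *Id4* (203 to 215 TPM) and *Runx1* (201 to 205 TPM) met. *Egr3* moved from sixth to the fifth place at 68.5 TPM, *Trp63* to the sixth at 55.6 and *Srf* from the fifth to seventh at 54.9, and the intervals of *Trp63* and *Srf* overlapped. *Tbx3* (16.7 TPM), *Mef2c* (1.89) and *Myocd* (0.242) kept the last places. These levels divide by the summed length of all annotated exons, so a gene with many alternative exons reads low. *Mef2c*, with 15715 exonic bases and 31 transcripts in GENCODE M21, is the longest of the 10.

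The comparison of the libraries asked whether the basal regulators differed after CL. Only *Myocd* was called, lower in CL basal, where a call needs a Benjamini-Hochberg adjusted p under 0.05 in a two-sided exact binomial test and a difference of at least 2-fold. Thus 1 of the 10 genes was called lower, beside 4.19% of the 17356 tested genes, and 0 were called higher, beside 1.87%. The median log2 fold change (CL basal over Ctrl basal) of the 10 genes was 0.12, beside -0.01 for all tested genes, with 6 genes above 0 and 4 below. At the adjusted p alone, with no fold threshold, 5 of the 10 were higher (22.6% of all tested genes) and 2 were lower (22.0%). All 5 higher results were lost when a coefficient of variation of 0.1 between animals was assumed, with adjusted p from 0.351 (*Egr3*) to 0.837 (*Trp63*) in edgeR's exact test.

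Deep coverage makes small differences pass a test on reads, so the 8 genes whose counts reached 1000 in the sum of the libraries were set beside the 7097 genes of that depth. Of the 8, 5 were higher at the adjusted p alone and 0 were lower, while 38.9% of genes of that depth were higher and 24.6% were lower. The middle 50% of those genes lay between -0.11 and 0.18 on the log2 scale, with a median of 0.04. Inside this range fell 4 of the 8 regulators (*Trp63*, *Tbx3*, *Srf* and *Sox10*). The other 4 (*Sox9*, *Runx1*, *Id4* and *Egr3*) lay above 0.18 and all 8 lay within the middle 95%, from -0.55 to 0.48.

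**Figure D2:**
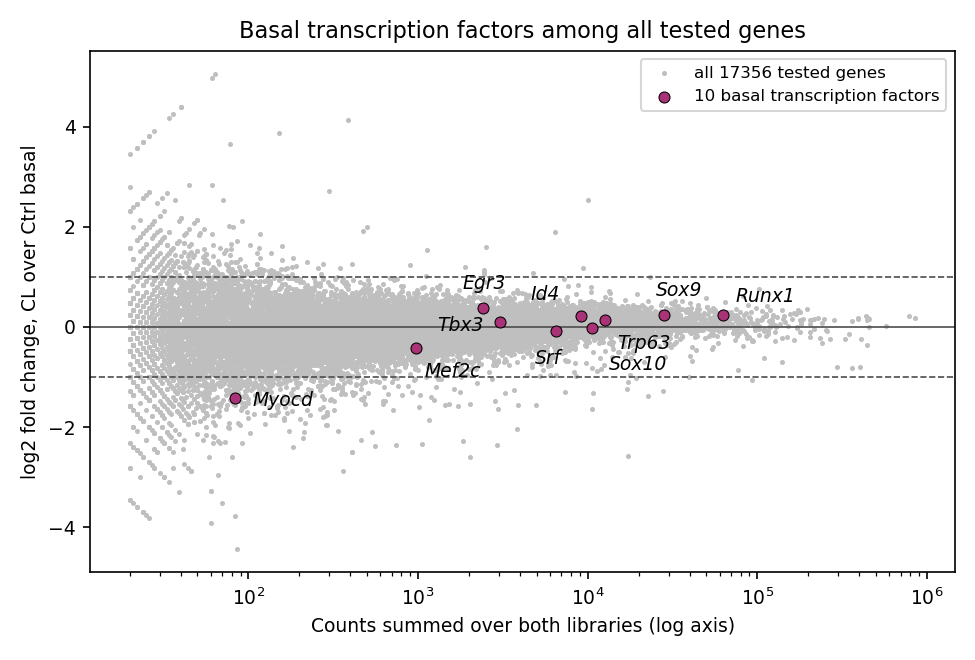
Log2 fold change of CL basal over Ctrl basal against the counts summed over both libraries (log axis) for all 17356 tested genes (grey) and the 10 basal transcription factors (purple), with dashed lines at 2-fold. *Myocd* (-1.42) is the only one of the 10 beyond a line, and it sits at the left, among genes with few counts.

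Among the regulators of epithelial identity, *Trp63* (chromosome 16, 25683763 to 25892102, plus strand, GRCm38) had 6601 counts in CL basal against 5984 in Ctrl basal. CL basal was the higher library, by 1.10-fold, a log2 fold change of 0.14 (95% exact binomial interval 0.09 to 0.19). Once the smooth trend on mean expression was removed, the value was 0.06, with an adjusted p of 0.0479 (exact binomial test). Reads of all its isoforms were counted together, so the full-length and the amino-terminally shortened p63 proteins cannot be told apart. Its relatives were measured beside it. *Trp53*, encoding the tumour suppressor p53, had 2503 and 1959 counts (log2 fold change 0.35, 0.26 to 0.44), and *Trp73* had 11 and 18.

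*Tbx3* (chromosome 5, 119670669 to 119684724, plus strand) had 1566 counts in CL basal against 1463 in Ctrl basal. The log2 fold change was 0.09 (-0.01 to 0.20), a difference that was not detectable at this depth (adjusted p = 0.138, exact binomial test), although with upper quartile scaling it was 0.13 and passed the adjusted p (0.0306). Its paralog *Tbx2* had 166 and 177 counts and was also within counting error (-0.10, -0.41 to 0.22). The antisense gene *Tbx3os1* shares 115 of the 6624 exonic bases of *Tbx3* and held 79 and 93 counts.

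*Runx1* (chromosome 16, 92601466 to 92826149, minus strand) was the most deeply counted gene of the 10, with 33890 counts in CL basal against 28586 in Ctrl basal. It was higher in CL basal by 1.18-fold, a log2 fold change of 0.24 (0.22 to 0.26), or 0.16 without the trend on mean expression. *Cbfb*, which encodes the partner that stabilises RUNX proteins on DNA, had 3485 and 3131 counts (0.15, 0.08 to 0.22). The paralogs *Runx2* (720 and 704 counts, 0.03, -0.12 to 0.18) and *Runx3* (111 and 80 counts, 0.46, 0.04 to 0.90) did not pass the adjusted p. On the TPM scale *Runx1* exceeded both in each library, at 203 and 169 against 5.76 and 5.56 for *Runx2* and 1.57 and 1.12 for *Runx3*. Reads from its outer and inner promoters are summed in the count. The opposite-strand gene *Gm26626* (858 and 701 counts) shares 106 of its 11827 exonic bases.

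The SOXE genes differed from each other. *Sox9* (chromosome 11, 112782224 to 112787760, plus strand) had 15300 counts in CL basal against 12855 in Ctrl basal, 1.19-fold higher, with a log2 fold change of 0.25 (0.21 to 0.28), or 0.16 without the trend on mean expression. *Sox10* (chromosome 15, 79154913 to 79164490, minus strand) had 5278 and 5333 counts, and its log2 fold change of -0.02 (-0.07 to 0.04) was within counting error, with a sign that turned with upper quartile scaling and without the trend on gene length. Its values ran from -0.09 to 0.02 over the alternatives, and at the lower end, without the trend on mean expression, it passed the adjusted p (0.00294, exact binomial test). The 95% intervals of these genes did not overlap. *Sox8*, the remaining SOXE gene, had 1024 and 654 counts and the largest log2 fold change of the family, 0.64 (0.50 to 0.79), which stayed under 2-fold. On the TPM scale it lay far below the others, at 23.2 in CL basal against 14.6 in Ctrl basal.

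*Trp63*, *Sox9* and *Krt14* are also expressed in the epidermis, some of whose upper-layer markers, as given above, were higher in CL basal, and the part of such cells in these values was not tested. *Sox10* also marks glia and melanocytes, so their markers were read beside it. Of 12 such genes, 9 could be tested, and 1 was called lower (*S100b*, 5 and 30 counts), beside 4.19% of all tested genes. At the adjusted p alone 2 were lower and 2 higher, beside 22.0% and 22.6% of all tested genes. The higher ones were *Ngfr* and *Mitf* (76 and 40 counts). *Foxd3* had 2 counts in CL basal against 0 in Ctrl basal and *Mlana* had 0 and 9. Summed, the list held 100 and 81.2 CPM, of which *Ngfr*, also a basal cell gene, made up 2235 of 3852 counts in CL basal and 1383 of 3112 in Ctrl basal.

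*Id4* (chromosome 13, 48261427 to 48264036, plus strand) had 4897 counts in CL basal against 4212 in Ctrl basal. CL basal was 1.16-fold higher, with a log2 fold change of 0.21 (0.15 to 0.27), or 0.14 without the trend on mean expression. The opposite-strand gene *A330033J07Rik* (1849 and 1732 counts) shares 171 of the 1660 exonic bases of *Id4*, and the use of strand in counting is not known here. The other ID genes had far fewer reads. *Id2* (566 and 483 counts, 0.22) and *Id3* (780 and 683 counts, 0.19) were higher at the adjusted p alone, and *Id1* (187 and 218 counts) had a log2 fold change of -0.22 (-0.51 to 0.06). By TPM, *Id4* was the leading ID gene in both libraries, at 209 and 177, and *Id2* (31.5 and 26.6) and *Id3* (30.8 and 26.6) followed at close levels.

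*Egr3* (chromosome 14, 70077445 to 70080157, plus strand) had 1372 counts in CL basal against 1045 in Ctrl basal. Its 1.31-fold difference was the largest upward one of the 10, a log2 fold change of 0.39 (0.27 to 0.51). The early response paralogs leaned the same way. *Egr1* had 46971 and 38465 counts (0.28, 0.27 to 0.30) and *Egr2* had 6901 and 5391 (0.35, 0.30 to 0.40), whereas *Egr4*, with 85 and 75 counts, was within counting error. Of the corepressors that EGR proteins bind, *Nab2* was higher (2146 and 1782 counts, 0.26) and *Nab1* slightly lower (7965 and 8379 counts, -0.08). Some 35.7% of the exonic bases of *Nab2* are shared with the opposite-strand gene *Gm16229*. The exons counted for *Egr3* ran from 70077445 to 70080157, whereas GENCODE M21 carries the gene from 70077203 to 70082614, so both ends lie outside the count. The table's models of *Sox10*, *Id4* and *Srf* also differ from that release in start and end.

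The regulators of the contractile programme gave 3 of the 4 values below 0. *Srf* (chromosome 17, 46546839 to 46556162, minus strand), whose CArG boxes are printed above, had 3179 counts in CL basal against 3347 in Ctrl basal. The log2 fold change was -0.08 (-0.15 to -0.01), and it missed the adjusted threshold (adjusted p = 0.0639, exact binomial test). This depended on the processing. It passed with total counts (-0.12, adjusted p = 0.00387) and without the trend on mean expression (-0.14, adjusted p = 0.000394). It missed with DESeq2 size factors (adjusted p = 0.0798), upper quartile scaling (0.376), the length trend removed (0.228) and counts halved (0.276). All of these were exact binomial tests, and with counts halved the interval was -0.18 to 0.02.

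*Myocd* (chromosome 11, 65176561 to 65269989, minus strand) had 22 counts in CL basal against 62 in Ctrl basal. It was called lower, with a log2 fold change of -1.42 (-2.27 to -0.78), on the least reads of the 10. Low counts were mostly even numbers, so both mates of a pair may each have been counted. With counts halved the interval widened to -2.64 to -0.47. Among the 3849 tested genes with 20 to 99 counts, 12.5% were called lower and 6.96% had a log2 fold change as low as that of *Myocd*. If a coefficient of variation between animals of 0.1 is assumed, edgeR's exact test still called it lower (adjusted p = 0.0091, beside 2.85% of all tested genes), but at 0.2 it did not (adjusted p = 0.30, beside 0.622%).

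The myocardin-related coactivators of SRF were far more abundant than *Myocd*. *Mrtfa* (listed as *Mkl1*) stood at 17.7 TPM in CL basal against 23.5 in Ctrl basal, and *Mrtfb* (*Mkl2*) at 6.12 and 7.35. Both were lower in CL basal without reaching 2-fold, *Mrtfa* with 1527 and 2057 counts (log2 fold change -0.43, -0.53 to -0.34) and *Mrtfb* with 778 and 946 (-0.29, -0.42 to -0.15). The ternary complex factors, the other class of SRF partners, were mixed. *Elk3* was lower at the adjusted p alone with 523 and 764 counts (-0.55, -0.71 to -0.39), while *Elk1* (481 and 428 counts, 0.16) and *Elk4* (1773 and 1718 counts, 0.04) did not pass it.

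*Mef2c* (chromosome 13, 83504034 to 83667080, plus strand) had 420 counts in CL basal against 560 in Ctrl basal. It was lower at the adjusted p alone, with a log2 fold change of -0.42 (-0.60 to -0.23), a result lost at an assumed coefficient of variation of 0.1 (adjusted p = 0.341, edgeR's exact test). Its abundant relatives did not share the direction. *Mef2a* had 5677 and 5104 counts (0.15, 0.09 to 0.20) and *Mef2d* had 4841 and 4445 (0.12, 0.06 to 0.18), at levels of 27.35 and 57.2 TPM in CL basal against 1.89 for *Mef2c*.

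**Figure D3:**
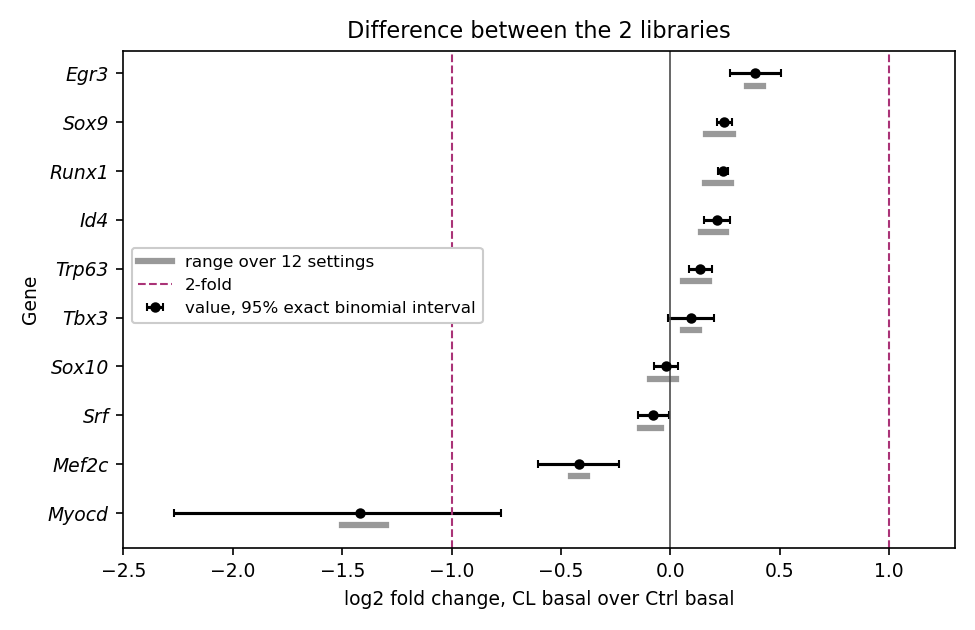
Log2 fold change of CL basal over Ctrl basal for the 10 genes (black points) with the 95% exact binomial interval of the reads, the range over 12 processing settings (grey bars; 11 for *Myocd*) and dashed lines at 2-fold. *Egr3* (0.39) is at the top, and *Mef2c* (-0.42) and *Myocd* (-1.42) are at the bottom.

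*Myocd* and *Mef2c* are also expressed in vascular smooth muscle, pericytes and, for *Mef2c*, endothelium and skeletal muscle. All 7 tested pericyte and vascular smooth muscle markers were lower in CL basal at the adjusted p alone, with log2 fold changes from -0.81 to -0.48 and a median of -0.71, and *Higd1b* had 0 counts in CL basal against 7 in Ctrl basal. *Rgs5*, the most abundant pericyte marker by TPM, had 1635 and 2281 counts. Of 8 endothelial markers, 5 were lower and 1 higher (median -0.27), with *Pecam1* at 4266 and 5503 counts. Of all tested genes, 22.0% were lower and 22.6% higher by that rule. Skeletal muscle markers summed to 2.89 CPM in CL basal against 7.54 in Ctrl basal, with 4 of 7 tested genes called lower and 1 higher, beside 4.19% and 1.87% of all tested genes and 12.5% called lower among those with 20 to 99 counts. The myogenic factors *Myog* and *Pax7* had 0 counts in both, and *Myod1* was the gene called higher, with 26 and 8 counts, a call that was lost with counts halved. The part of these cells in the values of *Myocd* and *Mef2c* was not tested.

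Over the 27 tested paralogs and partners together, 0 were called, and at the adjusted p alone 11 were higher and 4 lower, with a median of 0.12, beside 22.6% and 22.0% of all tested genes and 38.9% and 24.6% of those with at least 1000 counts. Genes that these regulators are known to control were then counted. Of 20 p63 target genes, 0 were called in either direction, although 1 was called lower when total counts set the scaling. At the adjusted p alone 8 were higher and 9 lower, to be read beside the same shares, and the median log2 fold change was 0.03. *Sfn*, an epithelial 14-3-3 protein, was the most abundant of them by TPM. It had 229178 counts in CL basal against 227682 in Ctrl basal (0.006, -0.003 to 0.014). The basal integrin chain *Itgb4* (6291 and 8932 counts, -0.51) and the cytoskeletal linker *Dst* (77701 and 66304 counts, 0.22), both anchors of the basal layer to its matrix and picked after their values were seen, went opposite ways.

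Of 18 target genes of SRF and myocardin, 0 were called. At the adjusted p alone 12 were lower and 6 higher, with log2 fold changes from -0.78 to 0.33 and a median of -0.06, where 24.6% of all genes with at least 1000 counts were lower and 38.9% higher. *Tpm2*, a tropomyosin and the most abundant of the list by TPM in Ctrl basal, had 125962 counts in CL basal against 132145 in Ctrl basal (-0.07, -0.08 to -0.06). Smooth muscle genes usually taken as readouts of myocardin went both ways. *Acta2* had 50513 and 51506 counts (-0.03, -0.05 to -0.01), and *Myh11* had 290054 and 285095 (0.02, 0.01 to 0.03). *Mylk* (20855 and 16523 counts, 0.33) and *Cnn1* (22378 and 20380 counts, 0.13) were higher, and *Lmod1* (12817 and 15870 counts, -0.31) and *Actg2* (2949 and 3322 counts, -0.18) were lower. *Des*, a muscle intermediate filament that also stands in the pericyte list, had the lowest value, -0.78 with 492 and 847 counts.

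**Figure D4:**
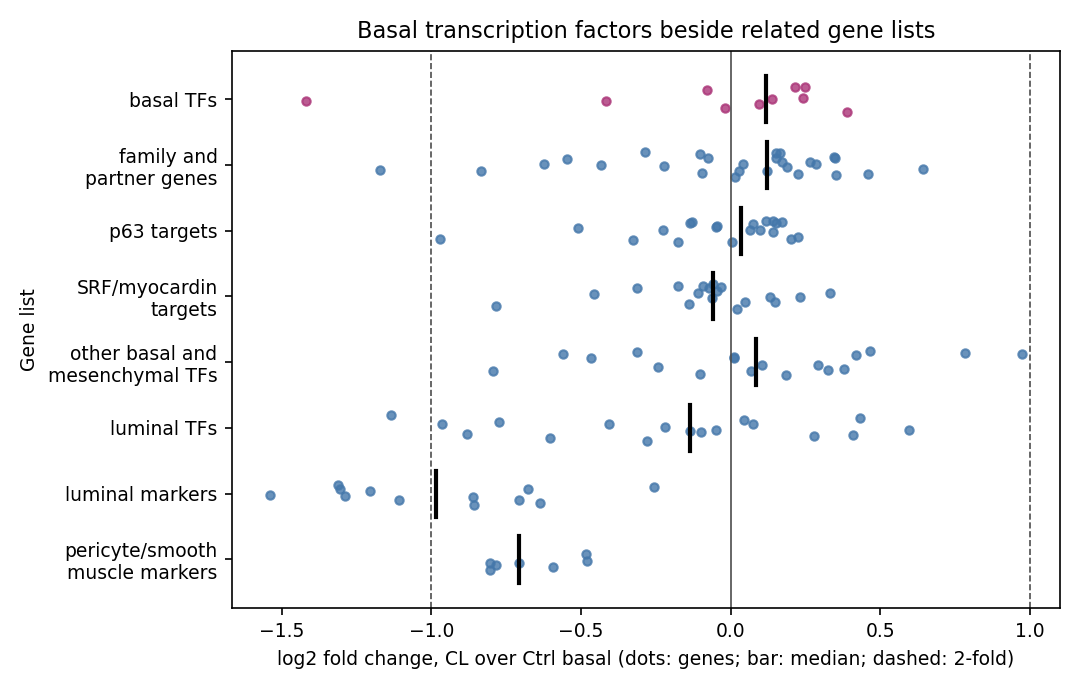
Log2 fold change of CL basal over Ctrl basal (horizontal axis) for each tested gene (dots) of 8 lists, with the median of each list as a bar and dashed lines at 2-fold. The basal transcription factors (TFs, purple) have a median of 0.12, the SRF and myocardin targets -0.06, the luminal transcription factors -0.14 and the luminal markers -0.98.

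Further transcription factors were counted for comparison. Among 18 further factors of basal and mesenchymal cells, 0 were called, and at the adjusted p alone 7 were higher and 4 lower (median 0.09), beside 22.6% and 22.0% of all tested genes and 38.9% and 24.6% of those with at least 1000 counts. *Fosl1*, an AP-1 subunit and the most abundant of these, had 38732 and 31579 counts (0.29, 0.27 to 0.31). The 4 lower genes were *Zeb1*, *Zeb2*, *Meis2* and *Tead1*, and the 7 higher ones were *Fosl1*, *Snai2*, *Lbh*, *Irx4*, *Tcf7l1*, *Bcl11b* and *Meis1*. At an assumed coefficient of variation of 0.1 only *Bcl11b*, *Meis1* and *Meis2* still passed in edgeR's exact test. *Bcl11b*, a zinc finger factor of basal cells, had 667 and 386 counts (0.78), and the EMT factor *Snai2* had 4411 and 3869 counts (0.19, 0.12 to 0.25). Among 17 tested luminal factors, 1 was called, beside 4.19% of all tested genes called lower. It was *Sox6*, which fell from 90 to 40 counts (-1.13, -1.75 to -0.62). That call was lost at assumed coefficients of variation of 0.2 and 0.4, and with total counts as the scaling *Pgr* (208 and 407 counts) was called as well. At the adjusted p alone 6 were lower and 3 higher (median -0.14), beside 22.0% and 22.6% of all tested genes. The lower ones were *Foxa1*, *Esr1*, *Pgr*, *Ehf*, *Stat5b* and *Sox6*, and the higher ones *Gata3*, *Tfap2c* and *Cebpb*. An assumed coefficient of variation of 0.1 left only *Foxa1*, *Pgr*, *Ehf* and *Sox6* passing in edgeR's exact test. *Cebpb*, the most abundant by TPM, had 10667 and 8784 counts (0.28, 0.24 to 0.32) and shares 20.7% of its exonic bases with *Tmem189* on the other strand. All 12 luminal marker genes were lower at the adjusted p alone, with log2 fold changes from -1.54 to -0.26 (median -0.98). Of these markers, 6 were called lower, beside 4.19% of all tested genes. The part of luminal cells in the values of the luminal factors and of the basal regulators was not tested.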

How the data were processed

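The authors deposited raw read counts per gene over annotated exons, not normalized, with the exon positions and a gene length, in the layout of featureCounts. The submitters' processing notes name GRCm38 and mm10; the aligner, annotation release, strand setting and filters are not given in the sources used here. A deposited log2 ratio of the libraries was not used. Start and end matched GENCODE M21 for 6 of the 10 genes.

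Counts were scaled by TMM in edgeR 4.0.16 (R 4.3.3), with factors of 0.9869 (CL basal) and 1.0133 (Ctrl basal). All genes whose summed count reached 20 entered a two-sided exact binomial test of the reads, Benjamini-Hochberg adjusted over all of them (scipy 1.17.1, Python 3.11.15). Log2 fold changes used a prior count of 2, and 95% intervals are Clopper-Pearson. TPM used the deposited length. Models that estimate replicate spread, such as the quasi-likelihood test, could not be fitted without replicates. The test was run on simulated Poisson counts that held no spread between animals and no double counting of mates, so this run checks neither.

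The 10 genes, the 14 other gene lists and the tests were chosen with earlier results of these data known. Named genes were the 10, 18 of their paralogs and partners, and from each list of targets or factors up to 4 called genes and the most abundant gene in Ctrl basal. Other named genes were chosen after their values were seen. Low counts were mostly even (68.7% of values from 1 to 20 in CL basal and 67.9% in Ctrl basal). Alternatives were other scalings (total counts, DESeq2 1.42.0 size factors, upper quartile), prior counts of 0.5 and 5, filters, thinning, counts halved, removal of trends on mean expression or length, assumed coefficients of variation, a 1.5-fold threshold and an adjusted p under 0.001.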

Additional observations from a re-analysis of the deposited data

How the results depend on the processing

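The log2 fold changes of the 10 genes kept their sign under the alternatives except for *Sox10*, which turned from -0.02 to 0.018 with the upper quartile and to 0.024 without the trend on gene length. The values of *Myocd* ran from -1.50 to -1.30, those of *Mef2c* from -0.46 to -0.38, those of *Srf* from -0.14 to -0.04 and those of *Egr3* from 0.35 to 0.43, while *Trp63* ran from 0.06 to 0.18. The median of the 10 ran from 0.06 to 0.15, and that of all tested genes from -0.04 to 0.03. With at least 100 counts, *Myocd* is not tested, so 0 genes were called lower and 1 was lower at the adjusted p alone. With total counts 3 were lower at the adjusted p alone (*Srf* added), and without the trend on mean expression 4 were (*Srf* and *Sox10* added); the cause was not tested. With an assumed coefficient of variation of 0.1, 1 gene was lower and 0 higher with no fold threshold. At 0.2 and at 0.4, 0 genes were called lower, and 0 were lower or higher with no fold threshold; these fits add an assumed spread between animals. The count called higher was 0 under every alternative. Of the call counts of the 14 other lists, 409 stayed within 1.5 times of the reported count and 39 moved. No paired analysis was possible because there is only 1 library a group, so no replicate could be left out either. Few counts limit the precision for *Myocd*.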

Other observations

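Some cell surface genes, picked from the marker lists after their values were seen, were higher in CL basal at the adjusted p alone and under 2-fold. *Ngfr*, a neurotrophin receptor, had 2235 counts in CL basal against 1383 in Ctrl basal (log2 fold change 0.69, 95% exact binomial interval 0.59 to 0.79). *Lgr6*, an R-spondin receptor, had 956 and 674 counts (0.50, 0.36 to 0.64), and *Mme*, a membrane peptidase, had 5609 and 4180 (0.42, 0.36 to 0.48). Of the 10 basal markers, 6 were higher and 3 lower at the adjusted p alone, beside 38.9% and 24.6% of all genes with at least 1000 counts. The lower ones were *Krt5* (40295 and 47049 counts, -0.23), the surface receptor gene *Oxtr* (2378 and 2590 counts, -0.13) and *Igfbp2*, a secreted binding protein, with 869 and 1232 counts (-0.51, -0.63 to -0.38).

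Among homeobox genes of the TALE family, *Meis1* had 122 counts in CL basal against 61 in Ctrl basal (0.97, 0.54 to 1.46) and *Meis2* had 172 and 299 (-0.79, -1.08 to -0.53), so that the intervals of these paralogs lay on opposite sides of 0. Neither reached 2-fold, but *Meis1* was called higher with upper quartile scaling (1.01) and without the trend on mean expression (1.07), and edgeR's exact test gave an adjusted p of 0.70 where the coefficient of variation was set to 0.2. *Meis1* shares 9.77% of its exonic bases with *Gm37818* and 8.51% with *Gm16140*.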
